A study of Mus musculus with 8 samples.

Results

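Ribosomal protein genes and translation factor genes were examined after knockdown of Grp94 in neuro2a (N2a), a neuron-like line grown from a mouse neuroblastoma. Grp94, encoded by Hsp90b1, is a chaperone that folds secreted and membrane proteins in the endoplasmic reticulum (ER). The members were chosen by gene symbol alone. Every row of the deposited table was taken that carried a symbol starting with Rpl, Rps, Mrpl, Mrps, Eif or Eef, and the Rps6k kinases were left out. This gave 51 of the 2395 transcript clusters in the table, which belong to 25 genes where pseudogene symbols are counted with their parent gene. A transcript cluster, called a row below, is the group of exonic probes that the array reports as 1 value.

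The Grp94 experiment used 8 Affymetrix Mouse Gene 1.0 ST arrays. The labels assign 4 to N2a cells with the treatment Vector knockdown and 4 to cells with the treatment Grp94 knockdown. The Grp94 group received vectors expressing an artificial microRNA against Hsp90b1. The Vector group is called empty vector below. This is a reading of its name, since the paper's figure describes it only as a control vector. Both groups thus went through transfection with an EmGFP-miR plasmid. The study's methods name several Grp94 constructs and a non-targeting control besides the empty vector, but the constructs are not tied to single arrays in the labels, nor is it stated whether the arrays of a group came from separate cultures.

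The cytosolic ribosome is built from ribosomal RNA and from proteins of a large subunit (Rpl genes) and a small subunit (Rps genes). Mitochondria hold a ribosome of their own, whose proteins (Mrpl and Mrps genes) are encoded in the nucleus and which translates the few mRNAs of the mitochondrial genome. Initiation factors (Eif genes) bring the initiator tRNA, the mRNA and the small subunit together, and elongation factors (Eef genes) move the ribosome along the message. When the ER is under stress, phosphorylation of the factor eIF2 lowers initiation. Cytosolic ribosomal protein genes have left many processed copies, or pseudogenes, in mammalian genomes, so that array probes made for a copy can read the mRNA of the parent gene.

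Each value below is the difference between the log2 means of the 4 knockdown and the 4 vector arrays, as the authors deposited them. No value per array was used, so the differences carry no standard error and no test of their own, and the number of arrays limits their precision. The means are centred for each row and keep no level of expression. The deposited table lists only rows that passed the authors' limit of 0.01 on their adjusted p, so a gene that is not listed has no value here. Its median log2 difference was -0.16, and directions are therefore also given relative to that median where they change. Hsp90b1 itself had a centred log2 mean of 0.74 in the vector group and -0.78 in the knockdown group, a log2 difference of -1.52 (2.87-fold lower). RNA came from whole cultures, so less RNA in each cell and fewer cells that express a gene cannot be told apart. Of 11 markers of neuroblastoma and neuronal cells, 4 were listed, 2 higher and 2 lower, with log2 differences from -0.17 for Stmn2 to 0.49 for Dbh. None of the 9 markers of fibroblasts, glia and immune cells was listed, and without levels the identity of the line could not be checked further.

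Of the 51 member rows, 26 differed by less than 1.1-fold, beside 11.3% of all rows, and the classes leaned to different degrees. By the median of each gene's rows, 6 of 8 cytosolic, 0 of 5 mitochondrial and 1 of 12 factor genes did. Of the 51 rows, 35 were higher and 16 were lower in the knockdown, whereas 40.1% of all rows in the table were higher and 59.9% were lower. Several rows of 1 gene count separately here. By gene medians, 60% of the 25 genes were higher, and 56.25% of the 16 rows at the gene's own locus (defined below) were. No share by gene or at the own locus was counted over the whole table, so 11.3% and 40.1% differ from these in unit. A fold change over 1.3, a log2 difference of 0.38, was reached by 1 member row, a 69 bp row named for Rpl23a, beside 22.3% of all rows (6.26% higher and 16.1% lower). After subtraction of the table's median, 8 member rows reached it, of which 4 were mitochondrial and 3 were factors. The share of all rows that reached it after subtraction was not counted, so 22.3% is no baseline for these 8. The cytosolic ribosome had 24 rows higher and 9 lower with a median log2 difference of 0.043. The mitochondrial ribosome had 4 rows higher and 1 lower with a median of 0.25. The translation factors were split, with 7 rows higher and 6 lower and a median of 0.083. After subtraction of the table's median, all 33 cytosolic rows and 88.2% of the 51 member rows were higher, so the direction of the small decreases turns with the zero point.

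**Figure D1:**
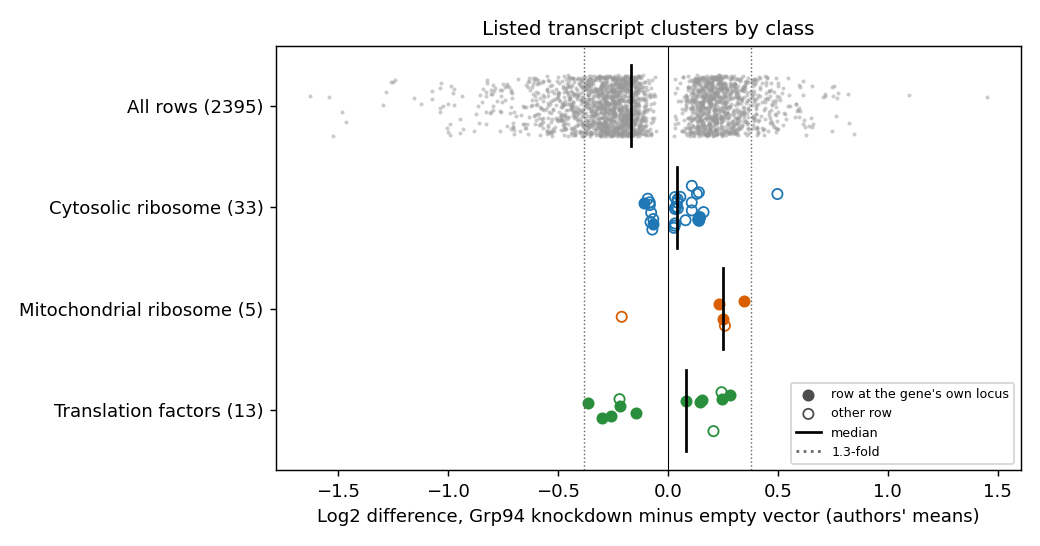
Log2 difference of the authors' means, Grp94 knockdown minus empty vector, for all 2395 rows (grey) and for the member rows of each class, with the median as a black bar and a fold change of 1.3 as dotted lines. Filled points are rows at the gene's own locus, judged by chromosome, strand and length, and open points are other rows. Most cytosolic points lie between -0.11 and 0.16, inside the dotted lines, while 4 of 5 mitochondrial points lie between 0.23 and 0.35.

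How a row matched its named gene was checked before its value was read as that of the gene. A row was taken to be at the gene's own locus when it lay on the chromosome of the gene in the RefSeq gene table of GRCm38, not on the opposite strand, and spanned at least 25% of the gene's length. Positions on the chromosome were not compared, so overlap of a row with its gene was not checked. Only 16 of the 51 member rows met this, and 30 lay on a different chromosome from the gene they are named for. Several symbols were given for 18 member rows (35.3%) and for 10.8% of all rows. A distance from start to stop under 300 bp was found for 5 member rows and for 64 of all rows. The classes differed in this respect, since 3 of 33 cytosolic rows, 3 of 5 mitochondrial rows and 10 of 13 factor rows were at their own locus. Whether the array probes of the other rows bind the parent mRNA was not tested.

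The 33 cytosolic rows came from only 8 genes, and 30 of them from 5 genes with several rows. Rows of the same gene lay close together. For Rps2, a protein of the small subunit, 10 rows on 9 chromosomes had log2 differences from 0.028 to 0.046 with a median of 0.034 (1.02-fold). None of them lay on the chromosome that carries Rps2 in GRCm38. Rpl10, a protein added late in the maturation of the large subunit, had 6 rows from -0.082 to -0.065 with a median of -0.072. All 6 Rpl10 rows were lower and all 10 Rps2 rows were higher in the knockdown. Rpl31 had 8 rows from 0.13 to 0.16 with a median of 0.14, and 7 of them named further genes or pseudogenes. Rpl41, the shortest protein of the large subunit, had 4 rows, of which the 3 spanning 78 bp had 0.11 and the other, of 377 bp, had 0.081, none of them at the gene's own locus. The 2 rows of Rpl36 had -0.090 and -0.078, and neither was at the gene's locus.

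The order of the genes was therefore wider than the scatter among rows of 1 gene. The range within a gene was at most 0.030 for the 5 cytosolic genes with several rows, and the gene medians ran from -0.11 for Rpl13a to 0.50 for Rpl23a. Rpl36, Rpl10 and Rpl13a were lower, though above the median of the table, and Rps2, Rpl23, Rpl41, Rpl31 and Rpl23a were higher. Rpl10 and Rpl36 overlapped in their rows, as did no other pair of cytosolic genes with several rows. Rows of 1 gene may share probes and read the same mRNA on the same arrays, so they are not replicates, and their closeness does not give the error between cultures.

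**Figure D2:**
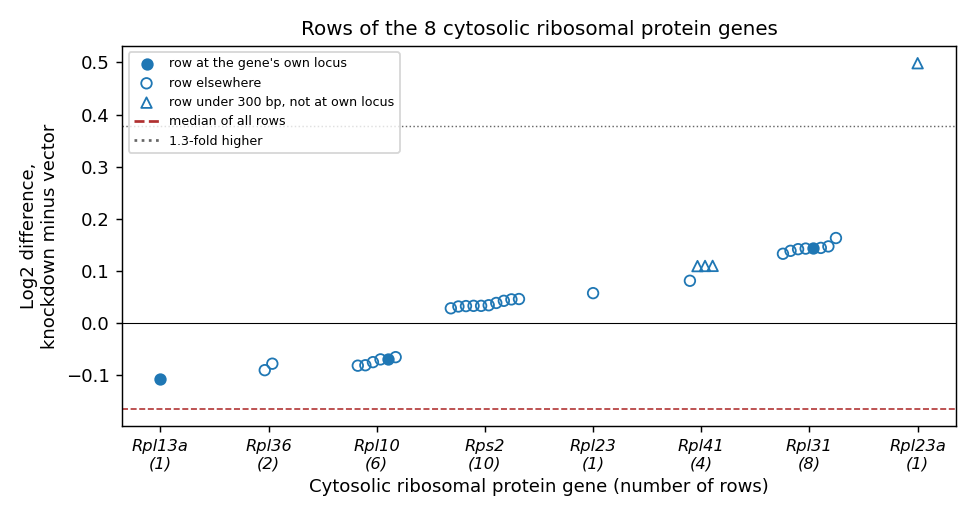
Log2 difference, Grp94 knockdown minus empty vector, of every row of the 8 cytosolic ribosomal protein genes, ordered by median, with the number of rows in brackets. Filled points are rows at the gene's own locus, open circles are rows elsewhere, triangles are rows under 300 bp, the dashed line is the median of all rows (-0.16) and the dotted line is a 1.3-fold increase. Rows of 1 gene form tight groups, and only Rpl23a lies above the dotted line.

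At their own locus, 3 cytosolic genes were measured, of which 1 was higher and 2 were lower, while all 3 were higher relative to the table's median. Rpl10 (chromosome X, 71516351 to 71518396) had a centred log2 mean of 0.041 in the vector group and -0.027 in the knockdown group, a difference of -0.069. Rpl13a (chromosome 7, 52381146 to 52384107), a large subunit protein also known to silence inflammatory mRNAs when released from the ribosome, had 0.046 and -0.061, a difference of -0.11. Rpl31 (chromosome 1, 39424994 to 39428752, a row that also names Tbc1d8 and gene models) had -0.087 and 0.057, a difference of 0.14. Among the 30 other cytosolic rows, 23 were higher and 7 lower, and all were higher relative to that median. The genome build of these positions is not given in the sources used here.

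Rpl23a, a protein near the exit of the ribosomal tunnel, stood apart from the other cytosolic genes. Its row had a centred log2 mean of -0.25 in the vector group and 0.25 in the knockdown group, a difference of 0.50 (1.41-fold higher). The row spans 69 bp (chromosome 11, 77996558 to 77996626, 28 probes), on the chromosome of the gene, which is 2650 bp long in GRCm38. Whether the row lies within the gene was not checked. The RefSeq table places 3 small nucleolar RNAs inside Rpl23a, of which Snord4a is 70 bp long, Snord42b 55 bp and Snord42a 45 bp. These RNAs guide chemical modification of other RNAs and are spliced out of introns. Which of these transcripts the row reads was not tested, and without it no member row passed a fold change of 1.3. Rpl23, a different large subunit protein, had 0.057 on a row that was not on its own chromosome.

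Small differences were more frequent among cytosolic ribosomal protein rows than in the table. A fold change under 1.1 was found for 25 of these 33 rows, beside 11.3% of all rows. Of the 20 rows in the table nearest to a difference of 0, 12 were cytosolic ribosomal protein rows and 10 of these were the Rps2 rows. The median absolute log2 difference was 0.081 among cytosolic rows and 0.25 among all rows. Counted by gene, with the median of each gene's rows, 6 of 8 were under 1.1-fold, with no count by gene over the whole table. The limit on p sets no fixed minimum on the size of a difference, but a row with more scatter between arrays needs a larger difference to be listed. These sizes are therefore those of listed rows only, and members with no row are not counted here.

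Promoters are shown for the 6 ribosomal protein genes with a row at their own locus by the rule above, and those of the factor genes are not shown. The letters are from RefSeq (GRCm38.p6) and run 5′ to 3′ from 150 bases before to 20 bases after the annotated start. Capitals mark CCAAT or its reverse complement ATTGG, the box bound by NF-Y, a factor whose sites are common in promoters of ER genes. They also mark CGGAAG or CTTCCG, the core bound by ETS factors such as GABP, and CACGTG, the E-box of MYC and USF. The windows are Rpl10 at chrX:74270666-74270835 on the plus strand, Rpl13a at chr7:45128726-45128895 on the minus strand, Rpl31 at chr1:39367701-39367870 on the plus strand, Mrpl17 at chr7:105811068-105811237 on the minus strand, Mrpl36 at chr13:73330859-73331028 on the plus strand and Mrps31 at chr8:22411190-22411359 on the plus strand.
Rpl10: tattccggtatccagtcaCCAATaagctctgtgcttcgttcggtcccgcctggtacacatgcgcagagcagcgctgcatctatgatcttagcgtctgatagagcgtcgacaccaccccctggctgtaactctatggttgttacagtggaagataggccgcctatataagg
Rpl13a: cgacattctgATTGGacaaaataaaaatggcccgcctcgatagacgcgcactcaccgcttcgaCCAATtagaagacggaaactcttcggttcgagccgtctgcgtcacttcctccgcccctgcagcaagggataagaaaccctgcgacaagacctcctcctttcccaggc
Rpl31: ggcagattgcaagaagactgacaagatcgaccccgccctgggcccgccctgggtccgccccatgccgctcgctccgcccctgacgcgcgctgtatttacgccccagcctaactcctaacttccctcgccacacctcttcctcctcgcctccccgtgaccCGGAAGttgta
Mrpl17: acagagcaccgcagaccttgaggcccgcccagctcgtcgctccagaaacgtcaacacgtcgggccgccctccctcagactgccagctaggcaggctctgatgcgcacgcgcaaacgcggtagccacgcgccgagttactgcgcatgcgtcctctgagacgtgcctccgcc
Mrpl36: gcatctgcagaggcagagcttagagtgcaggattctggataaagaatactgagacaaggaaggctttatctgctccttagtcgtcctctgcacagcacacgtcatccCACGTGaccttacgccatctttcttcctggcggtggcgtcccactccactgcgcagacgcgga
Mrps31: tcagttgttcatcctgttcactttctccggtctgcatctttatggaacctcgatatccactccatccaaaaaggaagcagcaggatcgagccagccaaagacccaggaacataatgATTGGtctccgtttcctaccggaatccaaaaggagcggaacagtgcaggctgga

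Among these 6 genes, CCAAT boxes lie at position -132 of Rpl10, at -140 and -87 of Rpl13a and at -34 of Mrps31, counted from the start site. Mrps31 was higher in the knockdown, and Rpl10 and Rpl13a were lower, though higher relative to the table's median. Rpl31 holds CGGAAG just after its start, Mrpl36 holds the E-box at -43, and Mrpl17 holds none of the motifs in the window shown. Over the 250 bases before the start, searched on both strands, CCAAT was found in 8 of the 20 member genes with a promoter in the table, beside 33.8% of all 32851 promoters. By class these were 3 of 6 cytosolic, 4 of 5 mitochondrial and 1 of 9 factor genes, with Mrpl36, Mrpl41, Mrps10 and Mrps31 as the mitochondrial genes. CGGAAG was found in 10 of 20 member genes, beside 13.6% of all promoters, and CACGTG in 3, beside 6.02%. For each motif, a member gene counted if any of its promoters matched, whereas the share of all is over single promoters. The units thus differ, and a gene with several promoters has more chances of a match. A match is a string of letters and no evidence of binding. No promoter was available for Rpl23a, Rpl36, Eif3h, Eif4ebp1 and Eif2c2, so they were not searched, and the strand of their rows was not checked.

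The mitochondrial ribosome was the class with the largest median difference. All 3 genes measured at their own locus were higher in the knockdown. Mrpl36 (chromosome 13, 73468457 to 73469626), the mitochondrial counterpart of a small bacterial large subunit protein, had a centred log2 mean of -0.21 in the vector group and 0.14 in the knockdown group, a difference of 0.35 (1.27-fold). Mrpl17 (chromosome 7, 112952296 to 112959601) had -0.15 and 0.10, a difference of 0.25 (1.19-fold). Mrps31 (chromosome 8, 23521854 to 23540137), a protein of the small subunit that bacteria lack, had -0.11 and 0.12, a difference of 0.23 (1.17-fold). None of the 3 passed a fold change of 1.3 as deposited, and all 3 did, together with Mrpl41, after subtraction of the table's median. The share of all rows that passed after subtraction was not counted.

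The 2 remaining mitochondrial rows are less certain. Mrpl41 had a difference of 0.26, but its row spans 138 bp on chromosome 7, whereas the gene lies elsewhere in GRCm38. Mrps10 was the only member of the class that was lower, with -0.21, on a row of 8 probes that also names Tmem232. This row lies on the chromosome of Mrps10 but on the opposite strand, and whether it overlaps Mrps10 was not checked. Without rows of several symbols, all 4 mitochondrial rows were higher. A further mitochondrial protein, Mrpl57, was listed under its former symbol Mrp63, which the choice by prefix missed, and had a difference of 0.23 (1.17-fold).

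Translation factors were spread evenly around 0 as deposited, with log2 differences from -0.36 to 0.28. Relative to the table's median, 61.5% of the factor rows were higher, with a median of 0.25. The factors that load the initiator tRNA come first. Eif1ax, the gene for eIF1A, which helps to select the start codon, had a centred log2 mean of 0.12 in the vector group and -0.14 in the knockdown group, a difference of -0.26 (1.19-fold lower). Eif2s3x, the gamma subunit of eIF2, the factor that carries the initiator tRNA, had 0.093 and -0.12, a difference of -0.22. The row named for Eif2s2, the beta subunit, had -0.22 as well, but it spans 996 bp on chromosome 8, away from the gene, and also names Gm9892. Eif2b1, the alpha subunit of the eIF2B exchange factor that recharges eIF2 with GTP, had the smallest difference of the class, 0.083 (1.06-fold higher). Eif2s1, the subunit phosphorylated under stress, the 4 eIF2 kinases of the Eif2ak family and the other eIF2B subunits were not listed.

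The scaffold factor eIF3, which bridges the small subunit and the mRNA, had 3 of 14 annotated subunit genes listed, and they did not share a direction. Eif3a, its largest subunit, had a centred log2 mean of 0.19 in the vector group and -0.11 in the knockdown group, a difference of -0.30 (1.23-fold lower). Eif3c, another core subunit, had -0.14, a decrease that turned to an increase relative to the table's median. Eif3h, a peripheral subunit, was higher by 0.15 at its own locus on chromosome 15 and by 0.24 on a row of 990 bp on chromosome 8, which is 1.25% of the gene's length. The 2 Eif3h rows had the same sign but differed by 0.097, more than any rows of 1 cytosolic ribosomal protein gene.

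Factors of mRNA binding and of later steps followed. Eif4a2, a helicase that unwinds the mRNA and is the paralogue of Eif4a1 common in neurons, had -0.16 in the vector group and 0.13 in the knockdown group, a difference of 0.28 (1.22-fold higher). Eif4a1 and all genes of eIF4E and eIF4G were not listed. Eif5a2, a paralogue of the factor eIF5A that relieves stalled ribosomes, was higher by 0.15 (1.11-fold). The row naming Eif5b, the factor that joins the subunits, was higher by 0.21, but it also names Rev1. It lies on the strand opposite to Eif5b, and whether it overlaps Eif5b was not checked. None of the 16 annotated genes with an Eef symbol was listed, so elongation factors have no value here.

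The remaining 2 members carry the prefix without being subunits of a factor. Eif4ebp1, the gene for 4E-BP1, binds eIF4E and blocks its use until mTORC1 phosphorylates it. It had a centred log2 mean of 0.14 in the vector group and -0.22 in the knockdown group, a difference of -0.36 (1.29-fold lower), the largest decrease of all members. Eif2c2 is the former symbol of Ago2, the Argonaute protein that cleaves mRNAs paired with a small RNA, and it was higher by 0.25 (1.19-fold). Without both, the factor rows were 6 higher and 5 lower.

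**Figure D3:**
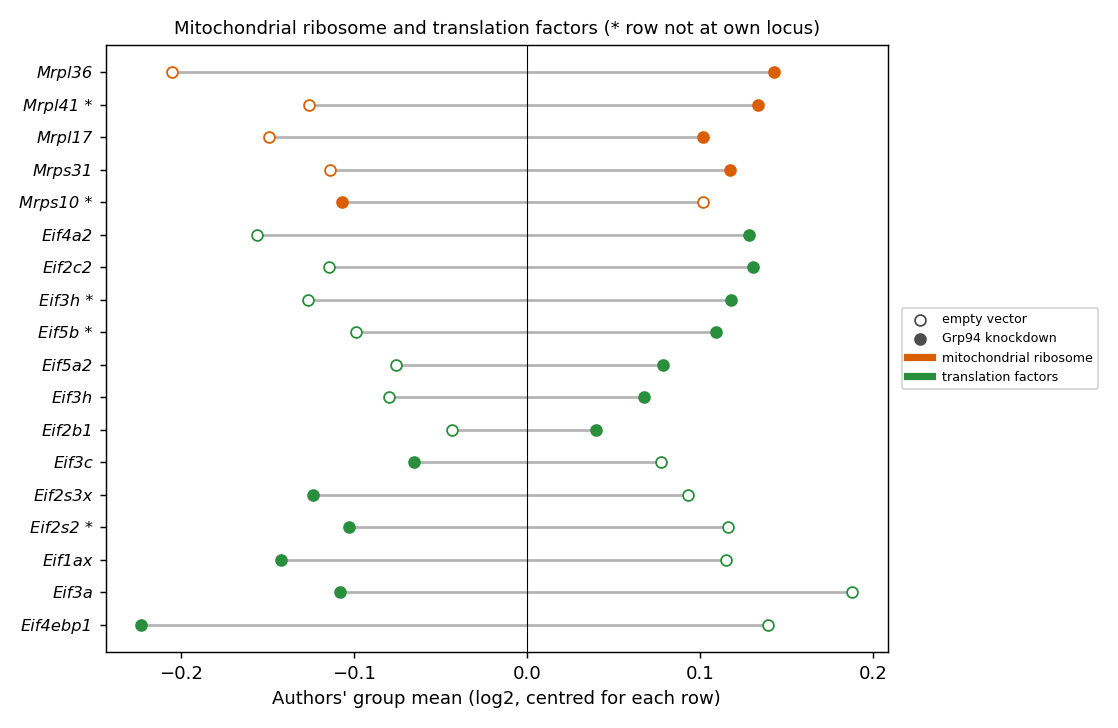
Centred log2 means deposited by the authors for the empty vector (open) and the Grp94 knockdown (filled) for the 5 mitochondrial ribosome rows (orange) and the 13 translation factor rows (green), ordered by the difference within each class, with an asterisk for rows not at the gene's own locus. The filled point lies right of the open point for 4 of 5 orange and 7 of 13 green rows. The longest decrease is that of Eif4ebp1 (0.14 to -0.22) and the longest increase that of Mrpl36 (-0.21 to 0.14).

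Most genes of these families were not listed. RefSeq annotates 91 protein-coding cytosolic ribosome genes by these symbols, of which 8 (8.79%) were listed under a chosen prefix. It annotates 78 mitochondrial ribosome genes, of which 5 (6.41%) were so listed, and 72 factor genes, of which 11 (15.3%) were. Eif2c2 is an additional factor row under its former symbol. The other genes number 83, 73 and 61. Mrpl57 is counted among the 73, although it was listed as Mrp63. Apart from Mrpl57, these genes either had no row that passed the authors' limits or were not on the array. Those 2 cases cannot be told apart here.

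Other genes of protein synthesis were drawn from 5 lists. Ribosome biogenesis, the making of ribosomal RNA and its assembly with proteins in the nucleolus, leaned higher. Of the 95 genes of this list, 22 were in the table on 23 rows, of which 20 were higher and 3 lower, with a median log2 difference of 0.20, beside 40.1% higher and a median of -0.16 over all rows. Nop10, a protein of the box H/ACA particles that convert uridine to pseudouridine, had the largest difference at 0.40 (1.32-fold). It was the only row past 1.3-fold. After subtraction of the table's median 11 rows passed, and the share over all rows was not counted. Taf1d, a subunit of the factor that directs RNA polymerase I to its promoter, followed with 0.26 on each of 2 rows, and Imp3, a component of the small subunit processome, with 0.26. The large subunits of RNA polymerase I, Polr1a and Polr1b, had 0.19 and 0.20. The 3 lower rows were Las1l (-0.21), which processes the large subunit RNA, Polr1c (-0.17), which RNA polymerases I and III share, and Nhp2 (-0.13), a partner of Nop10 that was higher relative to the table's median.

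Genes of the signal recognition pathway, which bring ribosomes to the ER membrane, were lower in all 5 rows, beside 59.9% of all rows. Their median of -0.19 was close to the -0.16 of the table, from which it differed by -0.029, and after subtraction no row was past 1.3-fold. Both Srp54c rows, nearly equal, count among the 5. The largest differences were those of Srpr, the receptor subunit on the ER (-0.46, 1.38-fold), Srp68 (-0.20) and Srp54c, on rows that also name Ppp2r3c (-0.19). No Sec61 gene was listed. Of genes in the mTORC1, MYC and kinase list, 4 of 22 were listed and all were lower, beside 59.9% of all rows, with a median of -0.54 as deposited and -0.38 relative to the table's median. A decrease over 1.3-fold was found for 3 of the 4, beside 16.1% of all rows. Ddit4, an inhibitor of mTORC1, had -0.73 (1.66-fold), Mknk1, a kinase of eIF4E, had -0.62 (1.53-fold) and Sesn2, a stress-induced inhibitor of mTORC1, had -0.47 (1.39-fold). Sesn3 had -0.29 (1.23-fold). None of the 4 is a subunit of mTORC1 or a MYC gene.

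The other lists were split. The list for termination, recycling and poly(A) binding had 4 of 30 genes in the table, 2 higher and 2 lower, and none of them is a release factor or a poly(A) binding protein. Ppp1r15a, which recruits a phosphatase to eIF2, had -0.70 (1.63-fold lower), Mcts2, a copy of the re-initiation factor gene Mcts1, had 0.62 (1.54-fold higher) and Dhps, the enzyme that starts the hypusine modification of eIF5A, had -0.23. Dph3, which takes part in the diphthamide modification of eEF2, had 0.12. Mitochondrial translation outside the chosen prefixes had 2 of 5 rows higher, and Mtrf1l, a release factor, had the largest difference at 0.30. Aurkaip1 (-0.17) and Oxa1l (-0.15), which act at the mitochondrial ribosome and the inner membrane, were lower, as was Tufm, the mitochondrial elongation factor (-0.078). Subtraction of the table's median left only Aurkaip1 lower in this last list.

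**Figure D4:**
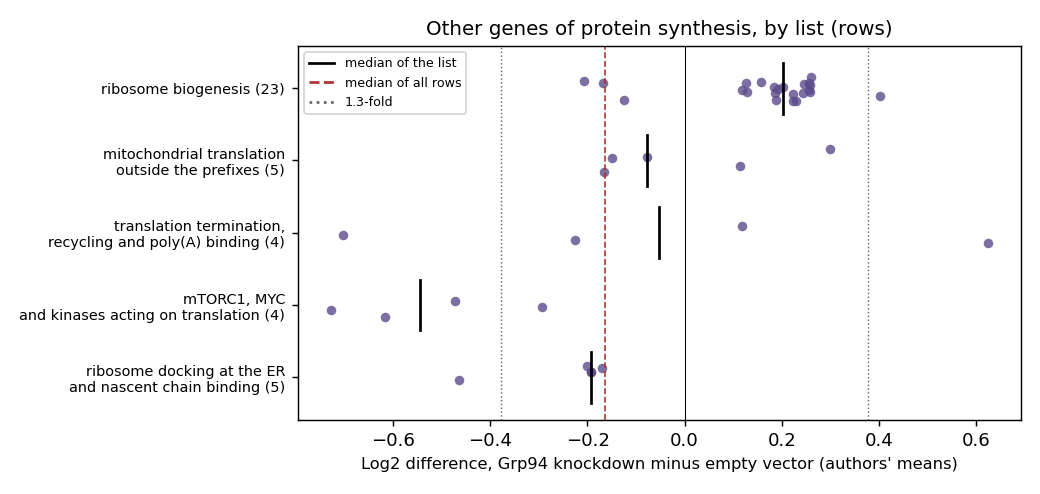
Log2 difference, Grp94 knockdown minus empty vector, of every listed row of the 5 lists (points), with the median of each list (black bar), the median of all rows (dashed, -0.16) and a fold change of 1.3 (dotted). Ribosome biogenesis rows lie right of 0 in 20 of 23 cases. All rows of the mTORC1, MYC and kinase list and of the ER docking list lie left of 0.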

How the data were processed

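Affymetrix Mouse Gene 1.0 ST arrays were hybridised with labelled cDNA from transfected N2a cells. The authors used Agilent GeneSpring GX and removed genes with low signal. The deposited table holds 1 log2 mean per group, centred by the authors for each row. Probe summarization, normalization between arrays and genome build are not given in the sources used here. The authors' comparison columns (p-values, adjusted p, fold change, log fold change and regulation) were not used, except to check that no row exceeded an adjusted p of 0.01. Positions and probe numbers, other values in the table, were used as deposited by the authors.

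The difference of the group means was computed per row, and rows were counted by class. No test was run, since 1 mean per group was used. Groups were taken from the sample titles. Every listed member was named, with the 3 largest differences of each list. Members and lists were chosen with earlier results of these data known. Names, chromosomes and lengths came from RefSeq GRCm38.p6 by Entrez identifier, which matched for all 51 rows, and strands came from the RefSeq promoter table, where a gene had an entry. The own-locus rule was set after seeing the data. Alternatives changed the fold threshold, the rows, the unit of counting and the zero point. Python 3.11.15, pandas 2.3.3, numpy 2.4.6, scipy 1.17.1 and matplotlib 3.10.9 were used, and the counting was tested on simulated data.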

Additional observations from a re-analysis of the deposited data

How the results depend on the processing

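No paired analysis was possible because the table gives 1 mean per group, and for the same reason no array was left out. The alternatives using own-locus rows, gene medians and current symbols were chosen after seeing the data.

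Member rows past the fold threshold went from 1 to 5 at 1.2 (mitochondrial 1, factors 3) and to 0 at 1.5, without rows under 300 bp, without any doubtful row, or at the own locus alone, for all members and for the cytosolic ribosome alike. Re-centring on the table's median gave 8 (mitochondrial 4, factors 3), with 88.2% of all member rows and 100% of cytosolic rows higher, a shift that follows from its construction. The share of all rows past the threshold was 22.3% at 1.3. It was not counted at 1.2, at 1.5 or after re-centring, so the member counts there have no baseline. The cytosolic ribosome was 72.7% higher as given, 50% higher without rows of several symbols, short span or a pseudogene symbol (median -0.019), and 33.3% higher at the own locus (median -0.069). The mitochondrial ribosome was 80% higher as given and 100% higher without rows of several symbols, without any doubtful row, or at the own locus. The factors went from 53.8% to 46.2% higher with current symbols (median -0.098). That setting took out Eif2c2, now Ago2, and added Gm10713, now the pseudogene symbol Eif1-ps1, whose own difference of -0.098 is that median. The factors' median of 0.083 turned to -0.030 with 1 value per gene, by either rule, and at the own locus.

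Ribosome biogenesis had 1 row past 1.3-fold, 0 past 1.5-fold and 11 after re-centring, and ER docking had 1, 0 and 0. The mitochondrial list outside the prefixes had 0 rows past 1.3-fold, 1 past 1.2-fold and 1 after re-centring, which also turned it from 40% to 80% higher (median 0.086). The termination list's median turned from -0.053 to 0.11 on re-centring. For these lists too, no share of all rows was counted at 1.2, at 1.5 or after re-centring.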
